A study of Salmo salar with 45 samples.

Results

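The comparison described here is the lowest inclusion of heat-killed *Lactiplantibacillus plantarum* L-137 (HK L-137) against the control diet in the distal intestine of Atlantic salmon, over all expressed genes. It rests on 18 of the 45 fish of the study, 9 fed LP20 and 9 fed the control diet (CD), chosen by the diet named in the sample records. All fish were pre-smolt AquaGen Atlantic QLT-innOva SHIELD salmon held in fresh water on feed with the same fish meal and plant protein base. According to the paper they had been fed the diets for several weeks when sampled. CD had no additive, and LP20 had 20 mg of the commercial powder Feed LP20 in each kg, which holds HK L-137 in tapioca dextrin. According to the methods each diet went to triplicate tanks and RNA was taken from 3 fish per tank, but the records do not tie a fish to a tank, so fish of one tank entered the test as separate replicates. Genotypes of single fish, and their age and sex, were not given in the sources used here.

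The teleost distal intestine is lined by enterocytes that take up intact protein and break it down in lysosomes, and their apical face carries microvilli held up by an actin scaffold. Below the epithelium lie the lamina propria, with fibroblasts, vessels and leucocytes, and then layers of smooth muscle with enteric nerves. The tissue kept for RNA was the whole wall after mesentery, fat and digesta had been removed. Heat-killed lactobacilli are sensed by pattern recognition receptors of leucocytes and epithelium, and strain L-137 is known in mammals for inducing interleukin 12. A bulk count does not tell whether a cell type became scarcer or its cells held less of an RNA, and these cannot be told apart anywhere below.

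The label of the tissue was checked on its markers. Cubilin (*cubn*), the endocytic receptor of protein-absorbing enterocytes, averaged 3360 ± 412 CPM (counts scaled to the effective library total; SD, n = 9) in CD and 3534 ± 454 CPM in LP20. Legumain (*lgmn*), a lysosomal protease, averaged 12540 ± 1036 CPM in CD and 12200 ± 2389 CPM in LP20. The 7 hepatocyte markers summed to at most 2.19 CPM in any fish and none was abundant enough to be tested. The 4 exocrine pancreas markers summed to between 32.8 and 44.3 CPM in CD and between 33.2 and 41.9 CPM in LP20. Fragments counted on genes ranged from 11674716 to 22377591 per CD fish and from 9660750 to 16541068 per LP20 fish, and no difference between the diets was detected in these totals (exact permutation p = 0.984, n = 9 per diet, all splits, two-sided) or in the share of counts on the 100 most abundant genes (exact permutation p = 0.647, n = 9 per diet). No 2 of the 18 libraries were alike within sampling noise, as the lowest chi-square per gene of the 153 pairs was 8.89.

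No gene passed the main test, edgeR's quasi-likelihood test with Benjamini-Hochberg adjustment, in either direction (0 of 28607 genes, 0%), and the smallest adjusted p was 0.0781. With no adjustment, 2364 genes with p under 0.05 were higher in LP20 (8.26%) and 1407 were lower (4.92%), and 342 genes had an adjusted p under 0.1. DESeq2 on the same 18 fish gave 648 higher genes (1.78% of 36358) and 159 lower genes (0.437%) at an adjusted p under 0.05. Of these 807 genes, 639 were among those tested in edgeR, and all 639 had an unadjusted edgeR p under 0.05. edgeR's likelihood ratio test gave 471 higher and 82 lower genes, of which 438 and 81 were also DESeq2 calls, whereas limma voom gave 0 and 0 at an adjusted p under 0.05, with 2148 higher and 1477 lower genes before adjustment. The number of calls thus differed with the tool, and the members described below are given by their levels in the fish. Verbs of change are kept for genes that passed a named test.

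Most genes had a fold change close to 0. The median log2 fold change (LP20 over CD) of all genes tested was -0.0036, 49.03% of them lay above 0, and the quartiles were -0.10 and 0.12. The 2 tails were unequal. The highest 1% of genes lay above a log2 fold change of 1.26, whereas the lowest 1% lay below -0.60. A higher mean by at least 1.5-fold was found for 1779 genes and a lower mean for 300 genes, and at 2-fold there were 664 and 49 genes. With single fish left out the count of genes at least 2-fold higher ran from 471 without LP20 fish 1 to 926 without LP20 fish 4 and 1070 without CD fish 7. Among genes with an unadjusted p under 0.05 the median log2 fold change was 0.74 for the higher ones and -0.30 for the lower ones.

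The tails also differed in level, as the plot of fold change against level shows. The higher genes of unadjusted p under 0.05 had a median level of 3.61 CPM, the lower ones of 16.4 CPM, and all genes tested of 9.18 CPM. Of genes with a mean of 1 to 10 CPM, 57.1% were higher in LP20, against 40.6% of those at 10 to 100 CPM and 34.5% of those over 100 CPM. At 1 to 10 CPM, 1655 genes of unadjusted p under 0.05 were higher and 465 lower, whereas at 10 to 100 CPM 504 were higher and 790 lower. The share of genes above 0 depended on the scaling (48.0% with RLE factors, 53.4% with upper-quartile factors), while the median of all genes moved by less than 0.1 on the log2 scale.

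**Figure D1:**
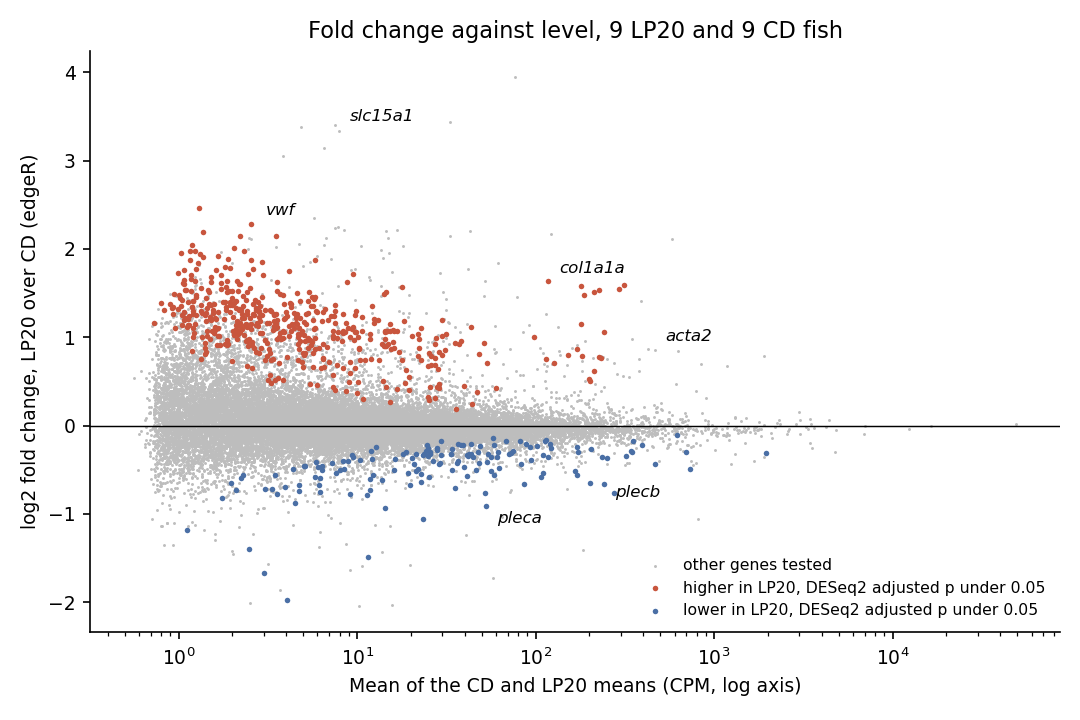
Each point is 1 of the 28607 genes tested, with the mean of both diet means in CPM on a log axis and the edgeR log2 fold change of LP20 over CD on the y axis. Red and blue points are the genes with a DESeq2 adjusted p under 0.05 (488 higher and 151 lower in LP20 among the genes drawn), and the red ones lie mostly at a lower level and further from 0 than the blue ones.

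The highest levels lay in few fish. Of the 664 genes with a mean at least 2-fold higher in LP20, 354 had their highest level in LP20 fish 1 and 160 in LP20 fish 5. Without LP20 fish 1, 451 of the 664 stayed at 2-fold or more, and without LP20 fish 5, 530 stayed and 11 were no longer above 0. With any other fish left out 550 to 658 stayed. Among the 11 genes was *slc15a1*, the gene of the peptide transporter PepT1, which had the largest log2 fold change among the named genes (3.40 ± 1.15, SE). It had 117 CPM in LP20 fish 5, and between 0.207 and 2.60 CPM in the other 8 LP20 fish. In CD it ranged from 0.246 to 2.19 CPM with a median of 1.27 CPM, and without LP20 fish 5 its log2 fold change was -0.39. Some 7.4% of its exon length lies inside exons of the other strand. The same fish had the highest level of *apoa1*, an apolipoprotein of intestine and liver, with 9862 CPM against a highest CD level of 3111 CPM.

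Genes of the extracellular matrix had means mostly on the higher side. Fibrillar collagens form the tensile fibres of the submucosa, type IV collagens the basement membranes, and type VI collagens the beaded filaments between them. Of the 7 collagen genes tested (of 8 in the list), 6 were higher in LP20 at an unadjusted p under 0.05 and none lower, with a median log2 fold change of 1.21, where all genes had -0.0036. Of all genes tested, 8.26% were higher and 4.92% lower at that limit, and the list counts below are set beside these shares. The lists were chosen with earlier results of these data known, so their counts are a description and do not test enrichment. *col1a1a*, a chain of type I collagen on chromosome 6 (44754656 to 44777524, plus strand), had 23.7, 40.9 and 179 CPM as lowest, median and highest CD value, and 32.7, 182 and 393 CPM in LP20. The highest CD fish, number 7, lay at the LP20 median, the lowest LP20 fish, number 4, lay among the CD fish, and 5 LP20 fish lay above every CD fish. The log2 fold change was 1.63 ± 0.42 (edgeR adjusted p = 0.0959, DESeq2 adjusted p = 0.0212). *col4a1*, of the basement membrane, went from 6.79 ± 4.09 CPM to 17.4 ± 10.5 CPM (SD, n = 9), a log2 difference of 1.35 (edgeR adjusted p = 0.102), and it was the other collagen that DESeq2 called. The type VI chains *col6a1* and *col6a2* had log2 fold changes of 1.27 and 1.21, and *col4a4* was the member on the lower side, at -0.19.

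Matrix glycoproteins and proteoglycans gave 10 higher and 0 lower members of 17 tested at an unadjusted p under 0.05, with a median log2 fold change of 0.73, and 9 other members of the list were too weakly expressed to be tested. A member low in CD could pass this filter through LP20 alone. Among the 10 was *vwf*, which is also counted in the endothelium list below. Laminin beta 2 (*lamb2*), a basement membrane chain, averaged 2.03 ± 1.08 CPM in CD and 4.83 ± 2.17 CPM in LP20. Its RefSeq name rests on a shared span of 0.518, close to the limit of 0.5. *frem1a*, a basement membrane protein, averaged 1.54 ± 0.92 CPM and 3.91 ± 1.80 CPM, and fibronectin (*fn1a*), which links collagen to cells, 7.37 ± 6.12 CPM and 20.8 ± 10.6 CPM. Of the exon length of *fn1a*, 11% lies on the other strand's exons. Thrombospondin 2 (*thbs2a*) had a log2 fold change of 1.23 and lumican (*lum*), a proteoglycan of collagen fibrils, one of 1.27. The basement membrane genes with the highest levels had smaller differences. Perlecan (*hspg2*) had 41.5 ± 6.4 CPM in CD and 47.6 ± 7.9 CPM in LP20 (edgeR adjusted p = 0.438). *lama3*, a laminin chain of epithelia, had 415 ± 61 CPM in CD and 372 ± 68 CPM in LP20, agrin (*agrn*) had 35.6 ± 8.0 and 35.2 ± 5.7 CPM, and *nid1a* had 30.0 ± 6.4 and 31.7 ± 7.7 CPM.

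The enzymes that build, crosslink and cut the matrix were higher in mean for all 19 members tested, 12 of them at an unadjusted p under 0.05. Their median log2 fold change was 0.83, and 4 other members were too weakly expressed to be tested. *mmp2*, the gelatinase of stromal cells, ranged over 6.83, 8.40 and 22.3 CPM (lowest, median and highest) in CD and over 8.66, 22.5 and 45.2 CPM in LP20, with 5 LP20 fish above every CD fish. Its log2 fold change was 1.07 ± 0.27 (edgeR adjusted p = 0.0959, DESeq2 adjusted p = 0.0136). The collagen chaperone *serpinh1a* (1.09), the procollagen processing enhancer *pcolcea* (1.32), the crosslinking oxidase *loxl3b* (1.07) and the inhibitor *timp2* (0.86) had log2 fold changes of similar size, and DESeq2 called these 5 genes. *mmp9* and *mmp13*, which leucocytes and remodelling tissue express, had log2 fold changes of 0.11 and 0.10, the latter with 75% of its exon length on the other strand's exons.

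**Figure D2:**
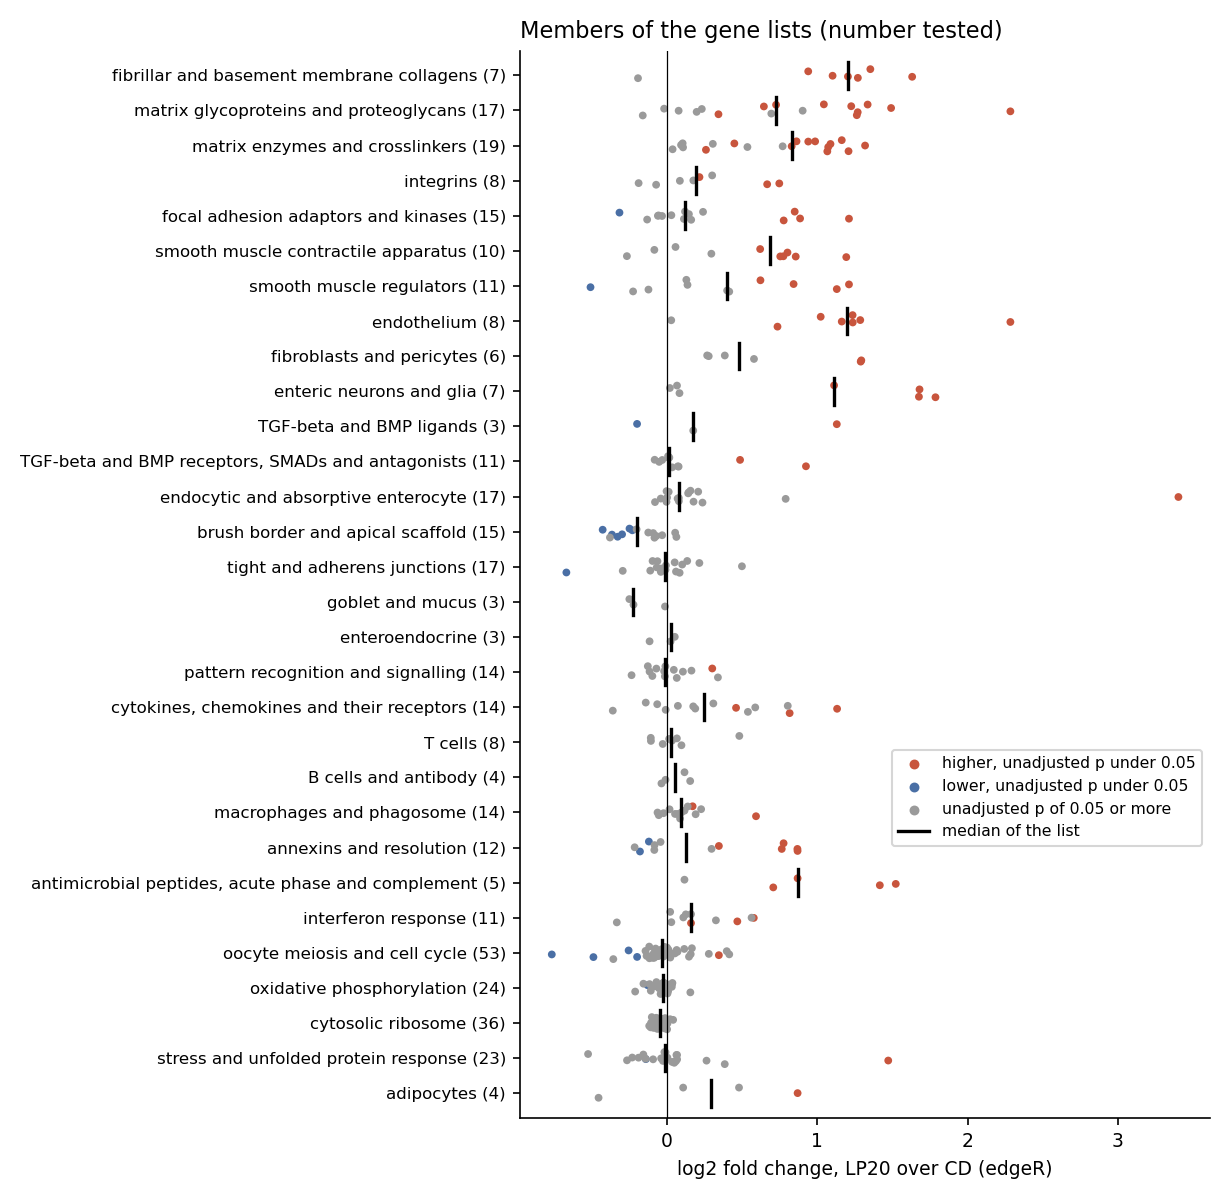
Each point is 1 tested member of a gene list, placed by its edgeR log2 fold change of LP20 over CD, with the number tested behind the list name and the list median as a black bar. Medians are 1.21 for collagens, 1.20 for endothelium and 1.11 for enteric neurons and glia, near 0 for T cells, ribosome and oxidative phosphorylation, and -0.20 for the brush border.

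Cell surface receptors and adaptors that hold on to this matrix varied. Of 8 integrins tested, 3 were higher at an unadjusted p under 0.05 and none was called by DESeq2. *itga9* was the first of them, with 1.495 ± 0.43 CPM in CD and 2.37 ± 0.62 CPM in LP20 (edgeR adjusted p = 0.106), and *itga5*, the fibronectin receptor chain, followed with a log2 fold change of 0.22. Of 15 focal adhesion genes tested, 10 had a higher and 5 a lower mean, 4 and 1 of them at an unadjusted p under 0.05. The tensins, which tie integrins to actin, led with *tns1b* from 7.49 ± 3.92 to 17.3 ± 7.2 CPM (log2 fold change 1.21, edgeR adjusted p = 0.0957, DESeq2 adjusted p = 0.00704) and *tns2a* from 4.74 ± 1.39 to 8.77 ± 3.24 CPM. Filamin B (*flnba*), an actin crosslinker, was on the lower side with 304 ± 50 and 244 ± 36 CPM (log2 fold change -0.31, edgeR adjusted p = 0.157). Talin (*tln1*), *vasp* and the kinase *ptk2ba* differed by log2 fold changes of 0.12, -0.03 and 0.03.

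Smooth muscle was described by its contractile genes and their regulators. Contractile genes were higher at an unadjusted p under 0.05 for 6 of 10 members and lower for none, with a median log2 fold change of 0.69. Tropomyosin 1 (*tpm1*), which winds along the actin filament, had 79.5, 99.3 and 192 CPM as lowest, median and highest CD value and 86.7, 170 and 322 CPM in LP20. The log2 fold change was 0.80 ± 0.22 (edgeR adjusted p = 0.103, DESeq2 adjusted p = 0.0218), and 3 LP20 fish lay above every CD fish. Smooth muscle actin (*acta2*) averaged 331 ± 134 CPM in CD and 600 ± 306 CPM in LP20, and the myosin light chain *myl9b* averaged 84.6 ± 25.4 and 143 ± 60 CPM. *pgm5*, a dystrophin-associated protein of muscle, had the highest log2 fold change of the list (1.19). *smtnb* (0.06), *ckba* (-0.08) and *cnn2* (-0.26) stood apart, and of these calponin 2 and the creatine kinase are also expressed outside muscle.

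Among the regulators of smooth muscle, 4 of 11 were higher and 1 lower at an unadjusted p under 0.05. *mab21l2* averaged 0.687 ± 0.310 and 1.56 ± 0.85 CPM, and myocardin (*myocd*), the coactivator of contractile genes, 1.20 ± 0.77 and 2.12 ± 0.88 CPM. *mrtfba*, a coactivator of the same family, lay on the other side with 23.8 ± 7.0 CPM in CD and 16.7 ± 4.9 CPM in LP20 (log2 fold change -0.51, edgeR adjusted p = 0.222). *hlx*, on chromosome 15 (29555910 to 29559318, plus strand), is outside this list and was named for its small p on the higher side. It encodes a homeobox factor of visceral mesenchyme in mice. It had 2.25, 3.32 and 5.96 CPM as lowest, median and highest CD value and 4.25, 7.97 and 17.3 CPM in LP20, with 7 LP20 fish above every CD fish (log2 fold change 1.29 ± 0.26, edgeR adjusted p = 0.0952, DESeq2 adjusted p = 0.00169). *kita*, the receptor that marks interstitial cells of Cajal and mast cells, was lower in mean, with 16.6 ± 2.6 CPM in CD and 13.4 ± 2.1 CPM in LP20 (log2 fold change -0.31, edgeR adjusted p = 0.169).

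Vessel genes had a list median close to that of the collagens. Of 16 endothelial markers 8 were abundant enough to be tested, and 7 of these were higher at an unadjusted p under 0.05, with 5 DESeq2 calls and a median log2 fold change of 1.20. A marker low in CD could pass the filter through LP20 alone, so this count does not stand for all 16. Von Willebrand factor (*vwf*, chromosome 10, 125650099 to 125819568, plus strand), which endothelium secretes and platelets bind, had the largest change of the named genes that DESeq2 called. Its CD values ran from 0.338 to 1.52 CPM with a median of 1.13 CPM, and its LP20 values were 10.02, 2.24, 5.25, 0.250, 9.13, 2.49, 4.91, 1.86 and 1.95 CPM in fish 1 to 9. Thus 8 LP20 fish lay above every CD fish and fish 4 lay below them all (log2 fold change 2.29 ± 0.49, edgeR adjusted p = 0.0952, DESeq2 adjusted p = 0.00222). *pecam1b*, a junction protein of endothelium, averaged 0.634 ± 0.211 and 1.51 ± 0.68 CPM, and *plvapb*, of fenestrated vessels, 4.25 ± 2.33 and 9.99 ± 5.19 CPM. *dll4*, a Notch ligand of arteries and sprouting vessels, had 2.12 ± 1.03 and 2.17 ± 0.52 CPM.

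Nerve genes were higher at a low level. Of 12 enteric neuron and glia markers 7 were abundant enough to be tested, of which 4 were higher at an unadjusted p under 0.05 and 3 of these were DESeq2 calls. As for endothelium, members low in CD could pass the filter through LP20 alone, and the 5 others had at most 75 counts over the 9 fish of a diet. *l1cama*, an adhesion molecule of axons, had between 0.254 and 1.51 CPM in CD and between 0.833 and 6.84 CPM in LP20, and 6 LP20 fish lay above every CD fish (log2 fold change 1.79 ± 0.40, edgeR adjusted p = 0.0952). The neuropeptide *vipb* averaged 0.721 ± 0.408 and 2.32 ± 1.66 CPM, and the nitric oxide synthase *nos1* of inhibitory motor neurons 0.589 ± 0.701 and 1.88 ± 1.20 CPM. A pair of named genes outside the list is also known from nerve cells. They were named for a small p or a large change on the higher side, so they add no support to the list. Peripherin (*prph*), an intermediate filament of peripheral neurons, averaged 1.25 ± 0.84 and 4.62 ± 2.87 CPM, and *neum*, the growth cone protein neuromodulin, 0.488 ± 0.387 and 2.24 ± 1.69 CPM. *elavl3*, *ret* and *mapta* had log2 fold changes of 0.07, 0.09 and 0.02 at levels above 4 CPM.

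Fibroblast and pericyte markers were higher in mean for all 6 tested of 15, of which *abcc9* (2.31 ± 1.42 and 5.65 ± 3.50 CPM, 41% of its exon length on the other strand's exons) and *dpt* (9.91 ± 7.27 and 24.4 ± 14.2 CPM) had an unadjusted p under 0.05. As for endothelium, members low in CD could pass the filter through LP20 alone. Of the untested ones *tbx18* had 11 counts in CD and 7 in LP20, and *thy1* had 33 and 82. The fibroblast factor *tcf21* had a log2 fold change of 0.58 (edgeR adjusted p = 0.512). Signals that act on these cells were less uniform. *bmp4*, a ligand from the mesenchyme below the epithelium, averaged 1.77 ± 0.94 and 3.83 ± 1.84 CPM (log2 fold change 1.13, edgeR adjusted p = 0.111, DESeq2 adjusted p = 0.0398). *bmp6* was lower in mean, with 57.6 ± 5.1 and 50.2 ± 7.3 CPM, and 51% of its exon length lies on the other strand's exons. *tgfb1a* had 5.63 ± 0.86 and 6.35 ± 0.94 CPM (edgeR adjusted p = 0.536). Of 11 receptors, SMADs and antagonists, *acvrl1*, a receptor of endothelium, and *nbl1*, a secreted antagonist, were higher at an unadjusted p under 0.05, and the list median was 0.02.

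**Figure D3:**
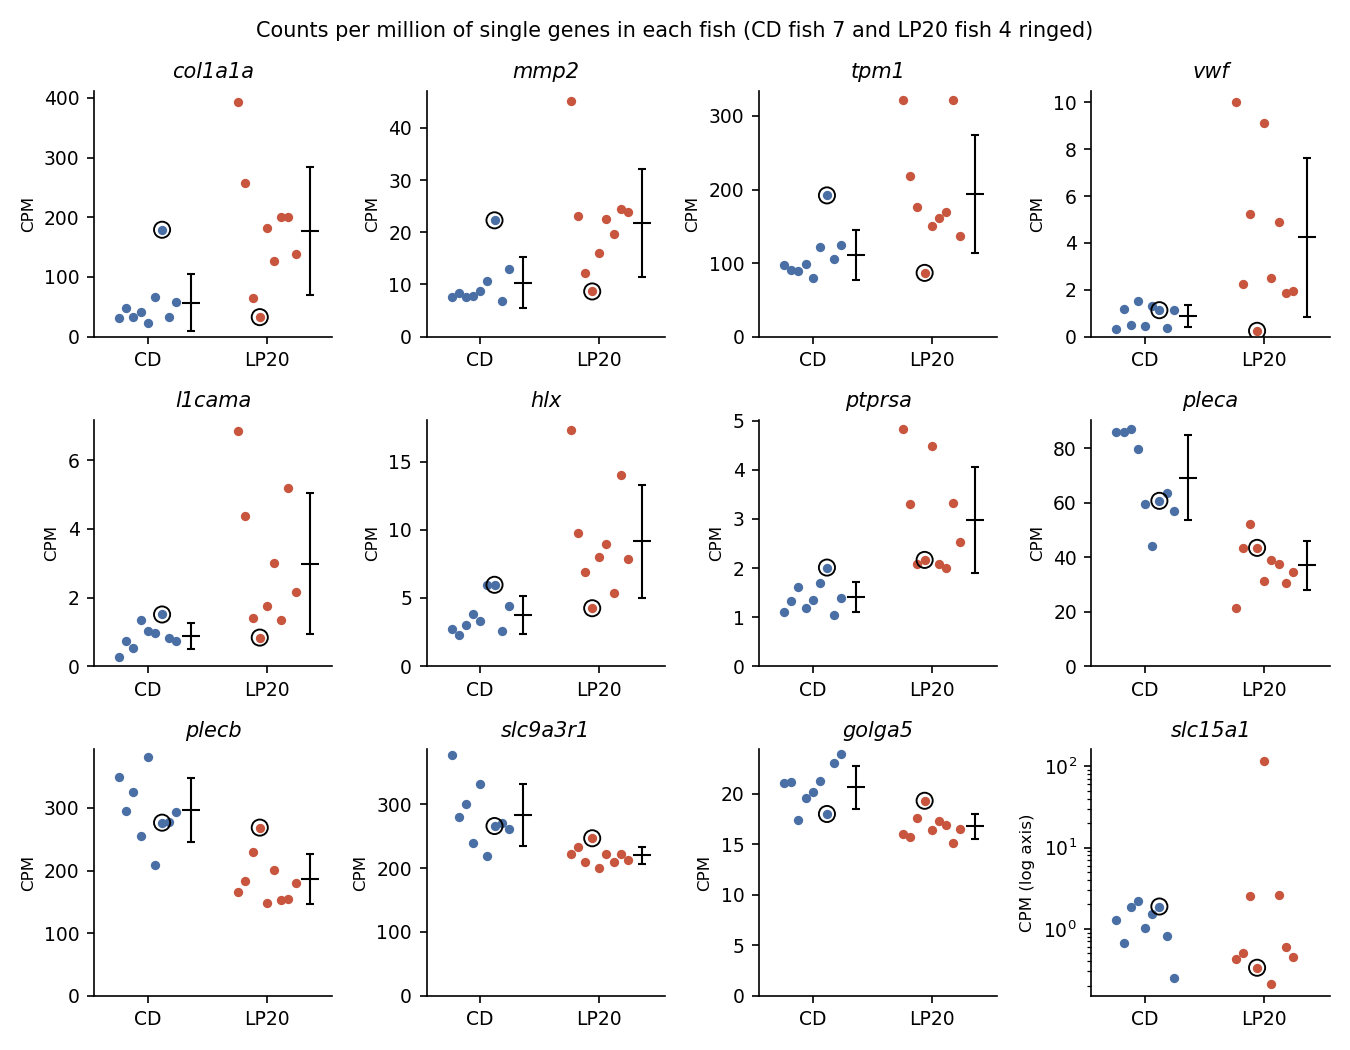
Levels of 12 genes in each fish, in CPM (log axis for *slc15a1*), with CD in blue, LP20 in red, and mean ± SD (n = 9) as black bars except for *slc15a1*. CD fish 7 and LP20 fish 4 are ringed, and for *col1a1a*, *mmp2* and *tpm1* they are the highest CD fish and the lowest LP20 fish.

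The remaining genes with the smallest p on the higher side do not share a list. *ptprsa* (chromosome 16, 49975284 to 50396266, plus strand), a receptor tyrosine phosphatase of neurons and other cells, was the only gene with a symbol for which the groups did not overlap upwards. It had between 1.05 and 2.01 CPM in CD with a median of 1.35 CPM, and between 2.01 and 4.83 CPM in LP20 with a median of 2.54 CPM, so that the closest fish of the diets nearly touched (log2 fold change 1.07 ± 0.21, edgeR adjusted p = 0.0952, DESeq2 adjusted p = 0.00222). Groups without overlap were found for 3 genes upwards (0.0105%) and 3 genes downwards (0.0105%) of all genes tested, and the other 5 carry a LOC number or no name. These are LOC106575324 and ENSSSAG00000084142 on the higher side, and LOC106613220, LOC106567892 and LOC106586591 on the lower side, named here after their values were seen. *dennd2b* (a regulator of Rab GTPases), *gpm6bb* (a neural membrane glycoprotein), *exoc3l1*, *pedf* (pigment epithelium-derived factor) and the kinase *map4k4* had log2 fold changes of 1.45, 0.96, 1.71, 1.41 and 1.01, and the edgeR adjusted p was 0.0952 in all 5. The name *pedf* rests on a shared span of 0.511.

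On the lower side the plectins stood first. Plectins are large linkers that tie intermediate filaments to hemidesmosomes and actin. *pleca* (chromosome 27, 4614007 to 4824363, plus strand) had 85.8, 85.96, 86.98, 79.6, 59.3, 44.1, 60.6, 63.4 and 56.9 CPM in CD fish 1 to 9. In LP20 fish 1 to 9 it had 21.2, 43.3, 52.2, 43.4, 31.1, 38.8, 37.6, 30.4 and 34.4 CPM. All but fish 3 of the LP20 diet lay below the lowest CD fish. Its log2 fold change was -0.91 ± 0.15, with an edgeR adjusted p of 0.0858 and a DESeq2 adjusted p of 0.000101. *plecb* (chromosome 2, 43734109 to 43930015, minus strand) is the other tested gene named as a plectin and had 209, 294 and 382 CPM as lowest, median and highest CD value, against 149, 180 and 269 CPM in LP20. Here 7 LP20 fish lay below every CD fish, and fish 4 had the highest LP20 level (log2 fold change -0.66 ± 0.12, edgeR adjusted p = 0.0952, DESeq2 adjusted p = 0.000802). Reads that fit both copies could have been split between them, and how they were counted was not examined.

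Desmoplakin (*dspa*), which anchors keratin filaments at desmosomes, lay on the same side, with 383 ± 55 CPM in CD and 312 ± 20 CPM in LP20 (log2 fold change -0.30, edgeR adjusted p = 0.0997, DESeq2 adjusted p = 0.0203). *golga5*, a golgin of the Golgi rim, had 17.5, 21.1 and 23.96 CPM as lowest, median and highest CD value and 15.1, 16.5 and 19.3 CPM in LP20 (log2 fold change -0.30 ± 0.07, edgeR adjusted p = 0.0957). *klf8*, a transcription factor, averaged 14.2 ± 3.7 and 9.33 ± 1.601 CPM, and *fer1l6*, a ferlin of membrane trafficking, 41.5 ± 8.7 and 30.9 ± 3.1 CPM. The kinase *slka*, which phosphorylates ezrin-type proteins in mammals, had 25.7 ± 4.5 and 18.3 ± 4.0 CPM. *hoxd4a*, a position factor of the trunk, had 2.88 ± 0.72 and 1.56 ± 0.79 CPM (edgeR adjusted p = 0.130), and *igf1rb*, a receptor of insulin-like growth factor, 2.55 ± 0.70 and 1.49 ± 0.66 CPM (edgeR adjusted p = 0.143). The genes ENSSSAG00000045580 and si:dkey-24p1.6, without an informative symbol, had log2 fold changes of -0.67 and -0.36.

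Genes of the brush border and apical scaffold list were mostly on the lower side. Not all of its members are microvillus genes. Among the others are *plin3* and *atp1b1a*, with log2 fold changes of -0.07 and -0.08, the latter with 44.6% of its exon length on the other strand's exons. Of 15 members tested, 13 had a lower mean in LP20, 6 of them at an unadjusted p under 0.05. None was higher at that limit, and the median log2 fold change was -0.20. Most members averaged over 100 CPM. Of all genes tested at that level, only 34.5% had a higher mean in LP20, and 7.67% were lower at an unadjusted p under 0.05. *slc9a3r1*, the scaffold protein that holds transporters to ezrin, had 219, 272 and 377 CPM as lowest, median and highest CD value and 201, 222 and 247 CPM in LP20 (log2 fold change -0.36 ± 0.08, edgeR adjusted p = 0.0957, DESeq2 adjusted p = 0.00980). The LP20 fish lay within a narrow range, with an SD of 14.01 CPM against 48.3 CPM in CD, and 4 of them were below every CD fish. Ezrin (*ezra*), the link of microvillus membrane to actin, averaged 766 ± 119 and 624 ± 67 CPM (DESeq2 adjusted p = 0.0489), with 27% of its exon length on the other strand's exons. The motor *myo5b* averaged 86.5 ± 9.9 and 69.1 ± 12.8 CPM, *myo7ba* 595 ± 86 and 502 ± 33 CPM, and the protocadherin *cdhr5b* of the microvillus tips 826 ± 138 and 705 ± 96 CPM. *pdzk1*, *myo6a* and *cdhr5a* had log2 fold changes of -0.03, -0.09 and 0.06.

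Of 17 junction genes 1 was lower at an unadjusted p under 0.05 and none higher, a share close to the 4.92% of all genes. *cldn3c*, a claudin of the tight junction, had 69.9, 92.1 and 159 CPM as lowest, median and highest CD value and 26.6, 71.4 and 84.6 CPM in LP20, with 3 LP20 fish below every CD fish (log2 fold change -0.67 ± 0.19, edgeR adjusted p = 0.117, DESeq2 adjusted p = 0.0330). The other 16 tested members of the list had an unadjusted p of 0.05 or more, among them *tjp1a* (31.8 ± 5.6 and 29.9 ± 3.2 CPM), *ctnna1* (101 ± 12 and 101 ± 9 CPM) and the intestinal cadherin *cdh17* (1232 ± 91 and 1143 ± 88 CPM). The absorptive enterocyte list had a median log2 fold change of 0.08, and its only member at an unadjusted p under 0.05 was *slc15a1*. The megalin gene *lrp2b* (2866 ± 449 and 2893 ± 979 CPM), cathepsin B *ctsbb* (16450 ± 2057 and 16440 ± 1566 CPM) and the bile acid carrier *slc10a2* (1471 ± 461 and 1556 ± 468 CPM) had means of about the same height. Goblet cell genes had lower means without passing any test, with *agr2*, which folds mucins, at 395 ± 52 and 333 ± 92 CPM (edgeR adjusted p = 0.504). The hormone genes *pyy* and *tac1* had log2 fold changes of 0.05 and 0.03.

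The immune lists differed among each other, and their counts are set beside the 8.26% of all genes that were higher at an unadjusted p under 0.05. None of the 8 T cell and none of the 4 B cell genes tested had an unadjusted p under 0.05, and both list medians were under 0.06. *cd3e*, of the T cell receptor complex, had 21.6 ± 2.7 and 22.2 ± 5.5 CPM, *cd8a* 10.3 ± 3.0 and 9.62 ± 3.44 CPM, and *cd79b*, of the B cell receptor, 9.37 ± 2.20 and 9.17 ± 2.97 CPM with 40% of its exon length on the other strand's exons. Among macrophage and phagosome genes 2 of 14 were higher at an unadjusted p under 0.05, *ncf4* of the phagocyte oxidase (2.07 ± 0.64 and 3.11 ± 0.95 CPM) and *c1qc* of complement (36.8 ± 3.8 and 41.4 ± 5.5 CPM). Of the receptors and adaptors that sense microbes 1 of 14 was higher at that limit, with log2 fold changes in the list from -0.23 to 0.34. *myd88*, the adaptor of Toll-like receptors, had 12.1 ± 1.2 and 11.9 ± 1.7 CPM, *tlr2* 0.925 ± 0.557 and 0.957 ± 0.666 CPM, and the kinase *syk*, the member at that limit, 11.2 ± 1.7 and 13.8 ± 2.4 CPM (edgeR adjusted p = 0.179).

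Of 24 cytokine and chemokine genes 14 were tested, and *cxcl14*, *csf3r* and *cxcr2* were higher at an unadjusted p under 0.05. A member low in CD, such as *cxcr2* (0.447 ± 0.402 and 0.973 ± 0.625 CPM), could pass the filter through LP20 alone. Of the 10 untested ones *il6* had 33 counts in CD and 20 in LP20, *il8* 51 and 44, and *ccr6* 10 and 18. The chemokine *cxcl14* had 2.37 ± 0.68 and 4.14 ± 1.74 CPM (log2 fold change 0.82, edgeR adjusted p = 0.114, DESeq2 adjusted p = 0.0423). Of the 13 antimicrobial, acute phase and complement genes 5 were tested, all with a higher mean and 4 at an unadjusted p under 0.05, one of which, *cfd*, has 57.1% of its exon length on the other strand's exons. Of the untested ones *c1r* had 23 counts in CD and 12 in LP20, and *c9* had 10 and 25. *c7b* and *c7a*, of the membrane attack complex, had 1.84 ± 1.01 and 5.28 ± 3.12 CPM, and 5.32 ± 4.61 and 14.2 ± 8.1 CPM, with log2 fold changes of 1.52 (edgeR adjusted p = 0.0959) and 1.42 (0.129). Interferon-response genes were higher in mean for 10 of 11 members, 3 of them at an unadjusted p under 0.05, with the smallest p for *irf9* at 31.02 ± 1.4 and 34.7 ± 4.0 CPM (edgeR adjusted p = 0.240). The mean of centred log2 CPM over these members ran from -0.23 to 0.22 in CD (median -0.17). In LP20 it ran from -0.36 to 0.62 (median 0.08), with fish 8 (0.62), 5 (0.41) and 9 (0.37) highest. The untested *irf7* had 102 counts in CD and 90 in LP20, and *rsad2* had 0 in both. *anxa1*, annexin A1, which limits inflammation in mammals, had 27.9, 35.7 and 45.8 CPM as lowest, median and highest CD value and 26.6, 45.9 and 74.1 CPM in LP20. The LP20 fish spread to both sides, with 5 above every CD fish and 2 below, and the log2 fold change was 0.35 ± 0.16 (edgeR adjusted p = 0.369). The prostaglandin enzymes *ptges* and *ptgs2b* had log2 fold changes of 0.87 and 0.77, *anxa6* had 0.87, and *anxa11a* was lower in mean with 72.8 ± 3.6 and 64.4 ± 4.7 CPM (DESeq2 adjusted p = 0.0292). The genes il1b, cdh1 and ighm were not analysed here.

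Housekeeping and cell cycle lists stayed close to 0. Of 36 ribosomal protein genes none had an unadjusted p under 0.05, and their log2 fold changes lay between -0.12 and 0.04. Of 24 oxidative phosphorylation genes 1 was lower at that limit. The list of oocyte meiosis and cell cycle genes had 4 lower and 1 higher member of 53 at an unadjusted p under 0.05, with a median of -0.03. The lower ones were *slka* and *igf1rb*, described above, the meiotic cohesin *rec8b* (56.1 ± 6.9 and 47.1 ± 8.5 CPM) and calmodulin *calm1a* (654 ± 61 and 571 ± 94 CPM), and the higher one was cyclin *ccnd2* (6.41 ± 1.04 and 8.14 ± 1.44 CPM). Apart from *rec8b*, these genes act in many tissues. In the stress list *hspb1*, a small heat shock protein that is abundant in muscle, had 2.02 ± 1.501 and 5.70 ± 4.03 CPM (log2 fold change 1.47, DESeq2 adjusted p = 0.0287), with 13% of its exon length on the other strand's exons, and *hspa8* had 1680 ± 136 and 1652 ± 166 CPM.

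Several lists of the gut wall had the same fish at their ends. For each list a value per fish was taken, namely log2 CPM centred on the 18 fish for every tested member and then averaged over these members. The collagen list ran from -1.06 to 0.83 in CD, with a median of -0.83, and from -1.04 to 1.57 in LP20, with a median of 0.71. CD fish 7 was the highest CD fish (0.83) and LP20 fish 4 the lowest LP20 fish (-1.04), and in 8 of the 9 LP20 fish the value was above the CD median. The contractile list ran from -0.50 to 0.37 in CD, with fish 7 highest, and from -0.49 to 0.85 in LP20, with fish 4 lowest. In the endothelium list the same fish were at the ends, with 0.49 for CD fish 7 and -1.05 for LP20 fish 4. They were also at the ends of the antimicrobial, acute phase and complement list, with 0.62 and -0.74. LP20 fish 5 differed between lists, with 1.29 for endothelium, 0.71 for collagens and -0.05 for the contractile list. No correlation between lists was computed. The brush border list followed the gut wall lists in part. LP20 fish 4 was its highest LP20 fish (0.04) and so nearest the CD median, while CD fish 7 lay at that median (0.12). The list ran from -0.14 to 0.27 in CD and from -0.19 to 0.04 in LP20 (median -0.10). No LP20 fish lay above the CD median.

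**Figure D4:**
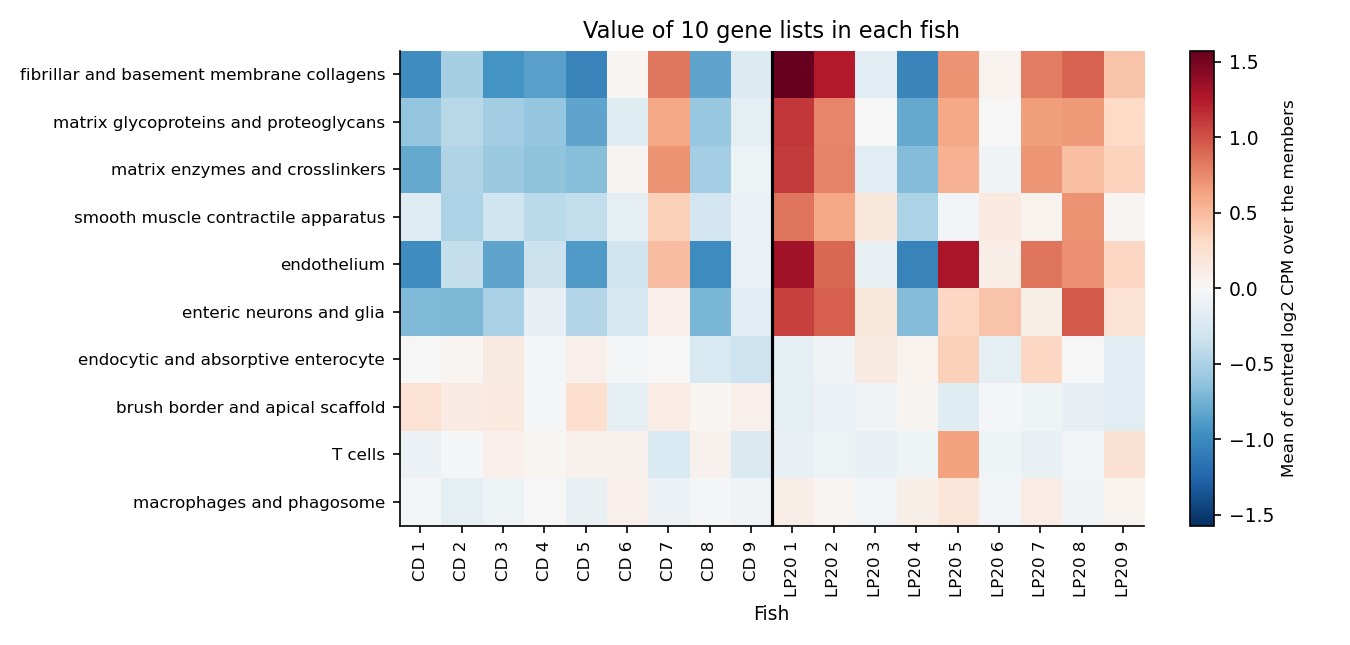
Value of 10 gene lists (rows) in each of the 18 fish (columns, CD left and LP20 right of the line), as the mean over the members of log2 CPM centred on the 18 fish. The top 6 rows, of matrix, muscle, vessel and nerve genes, are high in most LP20 fish and low in most CD fish and in LP20 fish 4. CD fish 7 is the highest CD fish in these rows, but lies near 0 (0.075) in the nerve row. The lower rows span a smaller range, and in the brush border row no LP20 fish lies above the CD median.

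With CD fish 7 left out, edgeR called 825 higher and 81 lower genes of 28783 tested. With LP20 fish 4 left out, it called 589 and 97 of 28945. Between these fits 496 higher and 55 lower genes were shared, and 459 and 71 of the calls without CD fish 7 were also DESeq2 calls on all 18 fish. Leaving out LP20 fish 3 gave 18 and 4 calls, CD fish 6 gave 1 and 3, and each of the other 14 fish gave 0 and 0. Without CD fish 7 the log2 fold change of *col1a1a* was 2.09 (edgeR adjusted p = 0.0167), and 6 of the 7 collagens, 9 of the 19 matrix enzymes and 7 of the 8 endothelial genes were called. Without LP20 fish 4 the corresponding counts were 4, 7 and 5. *pleca* and *plecb* were called in both fits, with log2 fold changes of -0.92 and -0.67 without CD fish 7. DESeq2 called between 129 and 1475 higher and between 39 and 307 lower genes when each fish was left out, with the lowest counts without LP20 fish 1 and the highest without CD fish 7 (higher) and LP20 fish 4 (lower). These 2 fish were singled out after their values were seen, and no result rests on the fits without them.

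**Figure D5:**
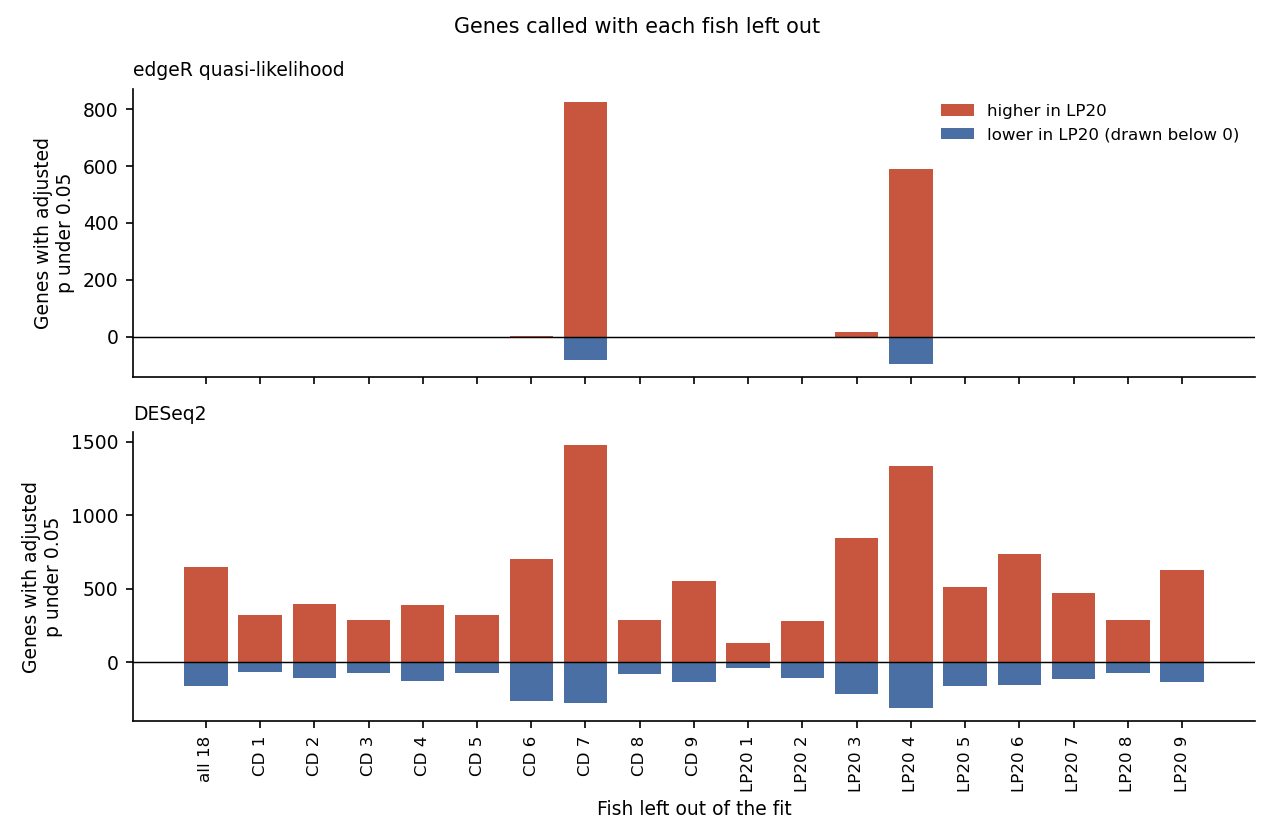
Number of genes with an adjusted p under 0.05, higher in LP20 above 0 and lower in LP20 below 0, when each fish is left out of the edgeR quasi-likelihood test (top) and of DESeq2 (bottom). In edgeR 825 higher genes appear without CD fish 7 and 589 without LP20 fish 4, where all 18 fish give 0.

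The summed levels of muscle and vessel markers are made of the members of the lists described above, so they add no separate evidence. Contractile genes summed to between 1894 and 2689 CPM in CD (median 1936 CPM) and to between 1881 and 3512 CPM in LP20 (median 2301 CPM), and endothelial genes to between 15.2 and 45.6 CPM and between 18.6 and 76.0 CPM. Much of the contractile sum was *ckba*, which is also expressed outside muscle, with 1080 ± 99 CPM in CD and 1020 ± 164 CPM in LP20. When the difference between the contractile list and the enterocyte list was added to the fit as a covariate, edgeR called 0 and 0 genes, 1902 higher and 1149 lower genes had an unadjusted p under 0.05, and the smallest adjusted p was 0.285. In that fit the log2 fold change of *col1a1a* was 1.18 (from 1.63), that of *hlx* 0.83 (from 1.29), that of *l1cama* 0.97 (from 1.79) and that of *vwf* 2.19 (from 2.29). *pleca* had -0.76 (from -0.91), *plecb* -0.58 (from -0.66) and *slc9a3r1* -0.35 (from -0.36). The list medians were 0.84 for collagens, 0.92 for endothelium and -0.14 for the brush border. The enterocyte list behind this covariate holds *slc15a1*, which had 117 CPM in LP20 fish 5. That fish had the highest enterocyte list value (0.37) and a covariate value of -0.42. A covariate without *slc15a1* was not tried. The part of tissue composition in the differences was not tested beyond these values. Adipocyte markers summed to between 96.6 and 309 CPM in CD and between 128 and 240 CPM in LP20, with medians of 138 and 189 CPM, and all 9 LP20 fish lay above the CD median of the list value. Of its 4 tested members *cfd* had 50.9 ± 22.95 and 92.95 ± 35.9 CPM (edgeR adjusted p = 0.143) and *cidec* 93.5 ± 63.7 and 68.2 ± 22.0 CPM (0.579). Of the 5 untested members *plin1*, the lipid droplet coat protein, had 32 counts in CD and 125 in LP20, *pck1* 6 and 5, *fabp4* 0 and 1, and *adipoqb* and *lepa* were at 0 in all 18 fish. Their part in the differences was not tested.

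Fish with consecutive label numbers in runs of 3 per diet could share a tank, which no source states. The consensus correlation of fish within a run was 0.0229. With counts summed per run, so that 3 values stood for each diet, no gene was called, 1945 higher and 1097 lower genes had an unadjusted p under 0.05, and *vwf* had a log2 fold change of 2.30, *col1a1a* of 1.58 and *pleca* of -0.92. Leaving out the run of CD fish 7 to 9 gave 422 higher and 48 lower genes, and leaving out the run of LP20 fish 4 to 6 gave 708 and 106.

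The other diets of the study, with 9 fish each, are set beside these levels without a test because they share the CD fish. LP100 and LP500 hold more of the same additive and MG holds a beta-glucan. *col1a1a* averaged 58.3 ± 48.5 CPM in CD, 180 ± 107 CPM in LP20, 228 ± 88 CPM in LP100, 286 ± 171 CPM in LP500 and 138 ± 112 CPM in MG (SD, scaled over all 45 fish). *hlx* averaged 3.86 ± 1.42, 9.27 ± 4.13, 10.5 ± 3.1, 12.1 ± 6.7 and 7.91 ± 6.14 CPM in the same order. *vwf* had another order, with 0.908 ± 0.465 CPM in CD, 4.30 ± 3.44 CPM in LP20, 1.97 ± 1.15 CPM in LP100, 4.58 ± 3.37 CPM in LP500 and 1.501 ± 1.11 CPM in MG. *pleca* averaged 70.7 ± 16.0 CPM in CD, 37.5 ± 9.3 CPM in LP20, 46.8 ± 14.2 CPM in LP100, 39.1 ± 16.0 CPM in LP500 and 52.6 ± 13.4 CPM in MG, so that LP20 had the lowest mean of the 5 diets. *slc9a3r1* averaged 289 ± 49, 223 ± 13, 254 ± 26, 226 ± 55 and 256 ± 19 CPM.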

How the data were processed

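The authors sequenced read pairs of 45 distal intestines, ran nf-core rnaseq with the genome Ssal_v3.1 and used featureCounts (v1.5.1 per the file headers), set for reverse-stranded pairs, for the counts of each Ensembl gene. The deposited values are raw counts, 1 table of 69389 genes per fish, and the 9 LP20 and 9 CD fish were used. The paper gives Qiazol extraction and the sample records RNeasy columns. The Ensembl genes took the symbol of the RefSeq gene (same assembly) sharing at least 0.5 of their joint span, which gave 30322 matches, and 8775 matches carried a proper symbol rather than a LOC number. Strand was not used in this matching, and 4728 genes still matched after a shift of the RefSeq positions by 100000 bp. Low shared spans include those of *cd79b* (0.517), *acta2* (0.532), *rec8b* (0.541), *mrtfba* (0.556) and *mab21l2* (0.573). Coordinates are those of the count tables. The share of exon length inside exons of the other strand is given where above 5%, and was also 8.4% for *col4a4*, 9.5% for *itga5*, 15.6% for *rec8b*, 17.1% for *tgfb1a*, 17.4% for *cdhr5a*, 17.8% for *hspa8*, 22.4% for *ckba* and 54.4% for *muc13b*.

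The counts entered edgeR (v4.0.16, under R v4.3.3) with filterByExpr, TMM factors, glmQLFit (legacy = FALSE), glmQLFTest and diet as the only factor. Adjusted p are Benjamini-Hochberg over 28607 genes, at a limit of 0.05. DESeq2 v1.42.0, limma v3.58.1 (voom), other factors, filters, fish and a covariate were alternatives, and leaving fish out of DESeq2 was added after seeing the data. SE was derived as the size of the edgeR log2 fold change over the square root of its quasi-likelihood F statistic. Counting error is largest for genes under 1 CPM. The value of a list per fish uses log2 CPM with a prior count of 2. The p-values measure the spread between fish, some of which shared a tank.

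The rule for naming took, per direction, the 10 genes with the smallest p. These had a mean of at least 1 CPM, a symbol and at most 5% of exon length on the other strand. It also took the 3 largest changes with p under 0.01, the 3 members with the smallest p of each described list, and *anxa1*. Not all of these members are printed above. Among those left out were *gata3* (log2 fold change 0.48), *tlr3* (-0.23), *tlr21* (0.34) and *stmn2b* (1.11). Further list members, such as *cd3e* and *myd88*, were named after their values were seen. The members and the 35 gene lists were chosen with earlier results of these data known. List members have no set test. Some genes, such as *vwf*, *bmp4* and *cfd*, are members of more than 1 list, so the lists are not independent. All 35 lists were scored, and skeletal muscle (1 gene tested), erythrocyte (2 tested, *alas2* higher at an unadjusted p under 0.05) and pancreas lists were used as markers of other tissue.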

Additional observations from a re-analysis of the deposited data

Results flagged for a closer look

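Within each diet the highest and the lowest of the 9 fish were compared with the rest by Dixon's ratio (95% critical value) for 25 genes and 30 lists. Of 110 groups 12 exceeded it. Chance gives about 1 in 20 only for independent groups that were not picked by their values. Most of these genes were named for a small p or a large change in the same fish, and the lists share members. The count is therefore a description. LP20 fish 5 stood out for *slc15a1* (log2 CPM 6.87, high), si:dkey-24p1.6 (4.83, low) and ENSSSAG00000045580 (1.07, low), and for the list values of T cells (0.636, high) and B cells and antibody (0.404, high). LP20 fish 4 stood out as low for *vwf* (log2 CPM -1.35), smooth muscle regulators (-0.537) and annexins and resolution (-0.263). CD fish 7 stood out as high for the matrix glycoprotein list (0.613) and the contractile list (0.373). LP20 fish 7 was low for integrins (-0.173), and CD fish 5 was high for the stress and unfolded protein response list (0.412). No cause was tested for any of these.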

How the results depend on the processing

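The 0 higher and 0 lower genes of the edgeR test stayed 0 and 0 with voom, with the legacy and robust fits, and with RLE, upper-quartile or total-count scaling. They also stayed so with a minimum mean of 1 CPM, with label runs summed or as a block, and with the covariate. The 21057 genes with at most 5% of exon length on the other strand were not fitted again. As a part of the main test they could hold no call, so they are no separate check. DESeq2 gave 648 and 159 genes on 18 fish and 160 and 20 on 45 fish, the likelihood ratio test 471 and 82, no filter 51 and 4, and the edgeR fit of 45 fish 7 and 0. With a fish or a label run left out edgeR gave 0 to 825 higher and 0 to 106 lower genes. DESeq2 with a fish left out, added after seeing the data, gave 129 to 1475 and 39 to 307. No paired analysis was possible because the labels carry no replicate numbers shared between diets. The numbers used here follow the order of the records.

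The 112 genes taken by the naming rule were followed over 2576 values. Of these values 2016 came from edgeR with a fish left out and 112 from DESeq2 on the same 18 fish. Not every alternative above entered this count. No gene had passed the main test, so none could lose the threshold. Direction and side of the threshold were kept by 2399 values. The threshold was newly passed by 148, of which 101 had a fish left out and 47 were from DESeq2. A further 29 changed sign, 26 of these with a fish left out. *slc15a1* had -0.40 in DESeq2. *muc13b* had 0.0049 with total-count scaling, and *tac1* -0.0010 with label runs summed. With a fish left out the log2 fold changes of the genes that changed sign ranged from -0.39 to 3.57 (*slc15a1*), -0.057 to 0.033 (*muc13b*), -0.19 to 0.0018 (*insm1b*), -0.10 to 0.22 (*pyy*), -0.11 to 0.13 (*tac1*), -0.18 to 0.015 (*cd79b*) and -0.028 to 0.16 (*epb41a*). The depth of 9660750 to 22377591 fragments limits genes under 1 CPM.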
